A study of Mus musculus with 4 samples.

Results

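The Ikaros family was followed through single-cell RNA libraries of mouse spleen by its 4 lymphoid members, Ikzf1 (Ikaros), Ikzf2 (Helios), Ikzf3 (Aiolos) and Ikzf4 (Eos). They were picked by gene symbol, and all 4 were found among the 32285 genes of the deposited matrices. These proteins are zinc finger transcription factors. Fingers near the amino end bind DNA, fingers near the carboxyl end let family members pair with one another, and the proteins recruit chromatin complexes such as the nucleosome remodelling and deacetylase complex. Ikaros is needed for lymphocyte development, Aiolos is best known from mature B cells, and Helios and Eos are best known from regulatory T cells, where Eos works as a partner of Foxp3.

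The cells were splenic B cells and CD4+ T cells of C57BL/6NRj mice, in 4 groups: KO mice on day 4 after immunization with sheep red blood cells given into the peritoneum, control mice on the same day 4, unimmunized KO mice (day 0) and unimmunized control mice (day 0). KO stands for deletion of the floxed Il2rb gene (Il2rbfl/fl), which encodes a receptor chain for interleukin-2 and interleukin-15, by a Cre recombinase active in B cells. The controls are named Cre, but the sample records list the same alleles for KO and control mice, so genotype was read from the hashtag key alone. How many mice went into each group is not stated in the labels. T cells were isolated with a kit described as one for naive CD4+ T cells, so subsets other than naive cells were what that isolation left.

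Each cell type gave 1 library in which the 4 groups were mixed after hashtag antibody labelling, so each group was 1 pool without a replicate. In the order KO day 4, control day 4, KO day 0 and control day 0, the pools held 1856, 1292, 977 and 1088 B lineage cells and 3178, 1947, 1271 and 973 T lineage cells. Summed depth in the pools was 5575870 to 13276812 unique molecular identifiers (UMIs) for B lineage cells and 4528102 to 19827840 for T lineage cells. In the same order of pools, median depth per cell was 5850, 6085.5, 4899 and 4629.5 UMIs in the B lineage. In the T lineage it was 5445, 5556, 4517 and 4513 UMIs, so day 4 cells were deeper in both. Il2rb gave 3, 8, 0 and 0 UMIs in the 4 B lineage pools, where 0 UMIs allow up to 0.538 CPM on KO day 0 and 0.523 CPM on control day 0, so its deletion could not be checked at this depth. T lineage cells held Il2rb at 98.3, 107.6, 70.2 and 86.8 CPM in their 4 pools. Levels are given as CPM, UMIs of a gene per 1000000 UMIs of all genes, summed over the cells of a subset. The assay reads the 5′ end of transcripts, so levels are compared between cells and not between genes.

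Subsets were gated by detected marker UMIs, and their names stand for the gate. Foxp3+ cells had at least 1 UMI of Foxp3, the defining factor of regulatory T cells, and were split by follicular helper genes. There were 607 Foxp3+ cells, of which 580 were non-follicular and 27 follicular, besides 4833 naive, 532 effector or memory, 261 follicular helper, 207 innate-like, 411 cells with a Cd8a or Cd8b1 UMI and 518 other T cells. The gate on Cd8a and Cd8b1 went against a CD8 T cell identity: Cd8b1 stood at 178.8 CPM there, but Cd8a at 1.13 CPM and Cd4 at 290.5 CPM. It is called the Cd8b1 gate here, and since it came before the Foxp3 gate it also held Foxp3 UMIs, at 42.6 CPM. The B lineage was split into 3326 follicular, 701 other, 524 marginal zone, 349 activated, 150 transitional, 62 B1, 52 germinal center and 49 plasma cells.

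The 4 genes lie apart in the mouse genome (mm10, GENCODE annotation): Ikzf1 at chr11:11685003-11772926 on the plus strand, Ikzf2 at chr1:69531214-69687245, Ikzf3 at chr11:98464902-98546031 and Ikzf4 at chr10:128630843-128645991, the last 3 on the minus strand. Over all annotated transcripts, no 2 of the 4 members shared a run of 50 bases, and none shared one with Ikzf5, another family member.

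Foxp3+ T cells held more Ikzf2, Ikzf4 and Ikzf3 and less Ikzf1 than naive T cells, in each of the 4 pools. Ikzf2 had 535, 645, 471 and 506 CPM in Foxp3+ cells of the KO day 4, control day 4, KO day 0 and control day 0 pools, against 19.8, 16.98, 15.6 and 11.6 CPM in naive cells of the same pools. The lowest Foxp3+ pool was thus far above the highest naive pool. Within pools, Ikzf2 was higher in Foxp3+ cells by 4.81 ± 0.11 on the log2 scale (SE; adjusted p = 2.97e-28, edgeR quasi-likelihood test with the pool as a block). Of the 10169 genes tested in this contrast, 23.8% passed the adjusted threshold of 0.05, with 13.7% higher and 10.1% lower in Foxp3+ cells. The 4 pools differ in genotype and day and serve as blocks, so these p-values speak of the spread of the contrast between 4 pools of unknown numbers of mice. That spread is in large part shared over genes (prior of 30.5 degrees of freedom), not read from each gene's own pools alone.

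Ikzf4 followed with 44.6, 52.7, 60.9 and 82.0 CPM in Foxp3+ cells of the same 4 pools, against 9.04, 9.00, 9.72 and 11.3 CPM in naive cells. The groups did not overlap, and the gene was higher in Foxp3+ cells by 2.296 ± 0.17 on the log2 scale (adjusted p = 1.06e-12, edgeR). Ikzf3 had 191, 179, 169 and 178 CPM in Foxp3+ cells and 75.1, 73.1, 79.8 and 70.9 CPM in naive cells. It too showed no overlap, with a difference of 1.07 ± 0.09 on the log2 scale (adjusted p = 2.39e-11, edgeR). Ikzf1 went the other way, with 145, 144, 147 and 119 CPM in Foxp3+ cells and 247, 244, 244 and 267 CPM in naive cells. Its log2 fold change was -1.02 ± 0.09 (adjusted p = 1.33e-10, edgeR), and every Foxp3+ pool lay below every naive pool. How many of all genes showed no overlap between pools was not counted, here or in the other contrasts. Leaving out any 1 pool kept these 4 log2 differences between 4.74 and 4.98 for Ikzf2, 2.23 and 2.44 for Ikzf4, 1.03 and 1.10 for Ikzf3, and -1.05 and -0.98 for Ikzf1.

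**Figure D1:**
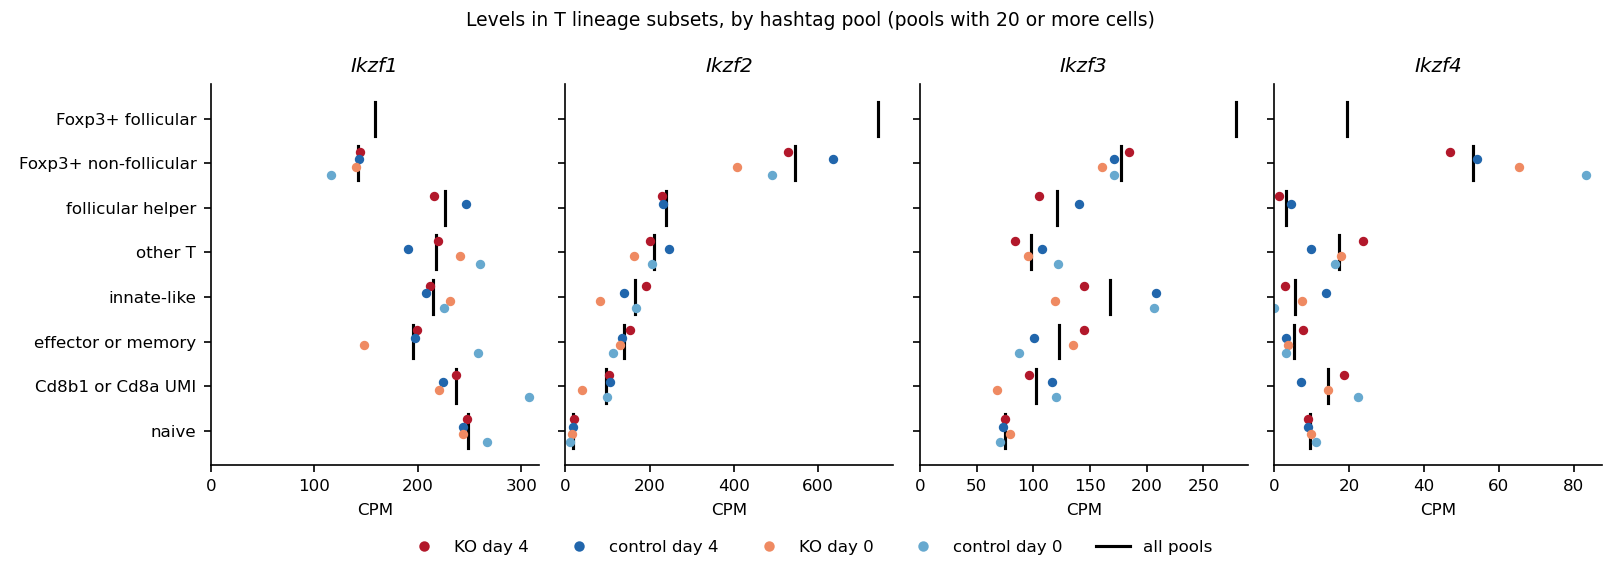
Level of each member (CPM, linear axes that start at 0) in 8 T lineage subsets. Points are hashtag pools with at least 20 cells and black bars are all pools summed; Ikzf2 lies between 408 and 635 CPM in the pools of the Foxp3+ non-follicular subset, and Ikzf1 is lowest in that subset.

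An Ikzf2 UMI was also detected in a larger share of Foxp3+ cells than of naive cells. Such a share rises with the level itself, so it does not tell more cells apart from more RNA per cell. With each cell thinned to 1500 UMIs, an Ikzf2 UMI was found in 268 of 600 Foxp3+ cells (44.7%, exact binomial 95% interval 40.6 to 48.8%) and in 85 of 4818 naive cells (1.76%, 1.41 to 2.18%). B lineage cells, read in the other library, had it in 0 of 5190 cells, which allows up to 0.0578% of cells with a UMI at that thinned depth. Thinning dropped 7 Foxp3+, 15 naive and 23 B lineage cells as too shallow. Before thinning, an Ikzf2 UMI was in 68.5% of Foxp3+, 4.26% of naive and 0.0767% of B lineage cells, whose median depths were 4834, 5195 and 5419 UMIs. Ikzf4 was detected after thinning in 8.33% of Foxp3+ cells (6.25 to 10.8%) and 1.37% of naive cells (1.06 to 1.74%), and before thinning in 24.1% and 4.47%. Ikzf1 had thinned shares of 18.7% in Foxp3+ cells (15.6 to 22.0%) and 31.8% in naive cells (30.5 to 33.1%), and unthinned shares of 47.9% and 69.6%. All such intervals cover counting error only. Foxp3+ cells made up 8.24% of T lineage cells and held 44.4% of the Ikzf2 UMIs and 34.3% of the Ikzf4 UMIs of that lineage, against 16.4% of the Ikzf3 UMIs and 5.36% of the Ikzf1 UMIs.

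Ikzf2 and Ikzf3 were higher in Foxp3+ cells with more Foxp3 UMIs, beyond counting error between the first and the last class. In cells with 1, 2 and 3 or more Foxp3 UMIs, Ikzf2 had 445 CPM (exact Poisson 95% interval 409 to 483), 582 (533 to 635) and 641 CPM (601 to 682). Ikzf3 had 143 (123 to 165), 170.3 (144 to 199.9) and 226 CPM (203 to 251) in the same 3 classes. Ikzf4 stood at 52.9, 51.1 and 49.0 CPM and Ikzf1 at 142, 166 and 131 CPM, each with overlapping intervals in the first and the last class. The 3 classes held 241, 151 and 215 cells with median depths of 4391, 4754 and 5356 UMIs, so depth moved with the class, and its part in the differences was not tested.

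**Figure D2:**
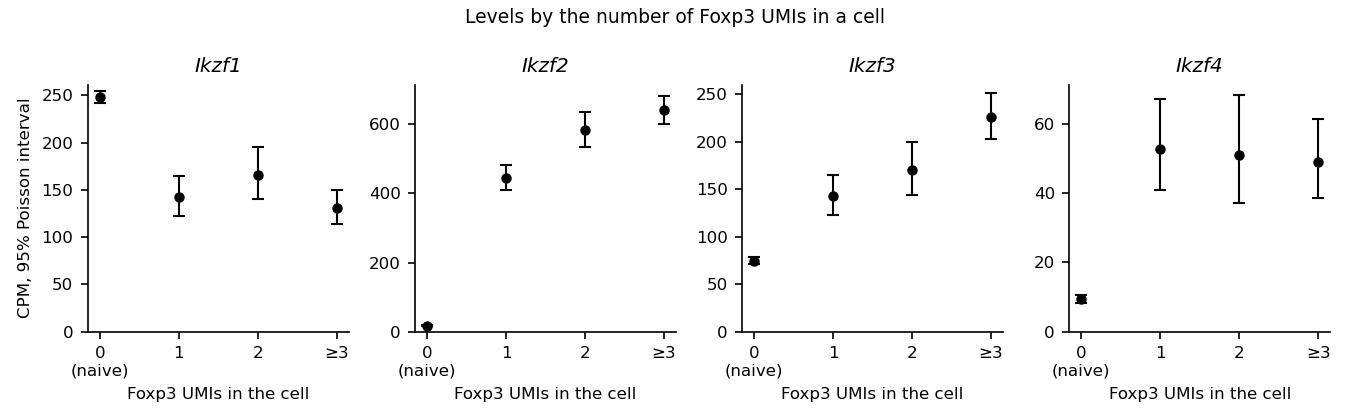
Level of each member (CPM with exact 95% Poisson intervals, counting error only; axes start at 0) in naive-gate cells without a Foxp3 UMI and in Foxp3+ cells with 1, 2 and 3 or more Foxp3 UMIs. Ikzf2 is at 17.3 CPM in naive cells and at 641 CPM in the last class, and the intervals of Ikzf4 overlap over the 3 Foxp3+ classes.

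Within the Foxp3+ cells, the follicular ones held more Ikzf2 and Ikzf3 and less Ikzf4 than the non-follicular ones, beyond counting error. Ikzf2 had 742 CPM in the 27 follicular cells, summed over pools, and 546 CPM in the 580 non-follicular cells, a ratio of 1.36 (95% counting interval 1.17 to 1.58). Ikzf3 had 278 and 177 CPM in the same order, a ratio of 1.57 (1.21 to 2.01). Ikzf4 had 19.3 CPM in follicular cells, on 5 UMIs, and 53.2 CPM in non-follicular cells, a ratio of 0.363 (0.117 to 0.864). Ikzf1 stood at 158 and 142 CPM, with a ratio of 1.12 (0.792 to 1.54) whose interval held 1. The follicular cells had no pool of 20 cells and no test, and their median depth was 8447 UMIs, against 4757 UMIs in non-follicular cells. The part of depth in these ratios was not tested. The highest follicular cell held 18.1% of their Ikzf3 UMIs, and for Ikzf2 it was 9.90%. Counting intervals do not cover such spread between cells. From KO day 4, control day 4, KO day 0 and control day 0 came 13, 10, 3 and 1 follicular cells. The non-follicular cells numbered 294, 159, 79 and 48, and the summed ratios did not keep pools apart. By pool, non-follicular cells had 529, 635, 408 and 491 CPM of Ikzf2 in the KO day 4, control day 4, KO day 0 and control day 0 pools, and 47.0, 54.1, 65.5 and 83.4 CPM of Ikzf4.

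Genes tied to regulatory T cells but not used in the gate differed too. Of 20 such genes, 16 were higher and 1 lower in Foxp3+ than in naive cells by the edgeR test, where 13.7% of all genes were higher and 10.1% lower. The count is a description, since some of these genes had too few UMIs in naive cells to enter the test other than through their Foxp3+ counts. The 3 highest by fitted value were the inhibitory receptor gene Klrg1 (27.8 CPM in Foxp3+ cells and 2 UMIs in all naive cells), the integrin gene Itgb8 (17.3 CPM in Foxp3+ cells and 0.264 CPM, or 7 UMIs, in naive cells) and the integrin gene Itgae (21.9 CPM in Foxp3+ cells and 0.301 CPM, or 8 UMIs, in naive cells). The chromatin organizer gene Satb1 was the 1 that fell, by 1.26 on the log2 scale, to 217 CPM in Foxp3+ cells, against 487 CPM in naive cells. All 6 cycling genes were higher in Foxp3+ cells too, against the same 13.7% of all genes. With cycling cells left out, Foxp3+ cells held 576 CPM of Ikzf2, 178.1 of Ikzf3, 142 of Ikzf1 and 59.5 of Ikzf4. The log2 fold changes over naive cells were then 4.97, 1.01, -1.06 and 2.46, and all 4 passed (edgeR).

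Of the partners of the family, 1 passed the test between Foxp3+ and naive cells. Of 20 genes for Ikzf5, subunits of the deacetylase and remodelling complexes, co-repressors and the ubiquitin ligase receptor Crbn, 19 could be tested. None was higher and 1 was lower, where 13.7% and 10.1% of all genes were. It was the deacetylase gene Hdac2, with 42.4 CPM in Foxp3+ cells and 56.8 CPM in naive cells (log2 fold change -0.62 ± 0.14, adjusted p = 0.00077, edgeR). The median over the 19 was 0.07, against -0.02 over all genes. Ikzf5, the family member with the broadest expression, had a log2 fold change of -0.16 ± 0.20, which did not pass (adjusted p = 0.645, edgeR).

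Ikzf2 was also higher in the other 5 tested T cell subsets than in naive cells. The gates of 2 of them, innate-like and Cd8b1, came before the Foxp3 gate and held 5 and 42 cells with a Foxp3 UMI. Follicular helper cells, which help B cells in germinal centers, had 229.9 and 231 CPM in the KO day 4 and control day 4 pools, the only pools with at least 20 such cells, against 19.8 and 16.98 CPM in naive cells. The log2 difference was 3.37 ± 0.11 (adjusted p = 1.45e-14, edgeR), in a contrast where 41.3% of 10345 genes passed. Median depth was 10055 UMIs in follicular helper cells and 5195 UMIs in naive cells. Only 2 pools entered the follicular helper fits, and their p-values too lean on the spread shared over genes (prior of 17.5 degrees of freedom). So do those of the 4-pool T cell fits, with priors from 26.8 in effector or memory to 47.1 in other T cells. B cell subsets were fitted only with at least 3 pools, a rule not set for T cell subsets. Effector or memory cells had 154, 134, 131 and 113 CPM in the KO day 4, control day 4, KO day 0 and control day 0 pools, a difference of 2.79 ± 0.11 (adjusted p = 1.56e-18, edgeR; 30% of genes passed). Innate-like cells had 192, 139.8, 82.0 and 169 CPM in these pools, a difference of 3.03 ± 0.17 (adjusted p = 2.21e-20, edgeR; 13.4% passed).

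The Cd8b1 gate had 104, 107, 39.2 and 98.0 CPM of Ikzf2, a difference of 2.35 ± 0.17 (adjusted p = 3.01e-12, edgeR; 1.99% of genes passed), and the other 3 members did not pass there. Its 42 cells with a Foxp3 UMI held 162 of its 259 Ikzf2 UMIs. Without them, the level was 53.0, 44.1, 11.6 and 5.98 CPM in the 4 pools, and the log2 difference was 1.09 ± 0.21 (adjusted p = 0.000387, edgeR). Both day 0 levels lay under the naive level of their own pool. They came from 56 KO and 36 control cells and so rest on very few UMIs, too few to set them apart from the naive level. Innate-like cells without a Foxp3 UMI kept a difference of 3.10 ± 0.18 (adjusted p = 4.51e-16, edgeR). The other T cells had 200.5, 245, 163 and 207 CPM, a difference of 3.47 ± 0.13 (adjusted p = 1.07e-27, edgeR; 8.57% passed). No pool of at least 20 cells in these 5 subsets reached the lowest Foxp3+ pool. Summed over pools, Foxp3+ cells held 2.34 times the Ikzf2 level of follicular helper cells (95% counting interval 2.15 to 2.55) and 4.00 times that of effector or memory cells (3.62 to 4.43).

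Some cells without a Foxp3 UMI carried other regulatory genes. At least 3 of the 6 genes Il2ra, Ctla4, Tnfrsf18, Tnfrsf4, Nrp1 and Gpr83 were detected in 83 naive, 74 effector or memory, 83 follicular helper and 69 other T cells. These cells held 198, 300.2, 277 and 727 CPM of Ikzf2, against 12.1, 96.0, 216 and 114 CPM in the cells of the same 4 subsets without that pattern. Innate-like cells went the other way, on few UMIs. Their 12 cells with the pattern held 25 Ikzf2 UMIs, 0.536% of those of the T lineage, in 0.445% of its total UMIs. The 195 without it held 4.52% of the Ikzf2 UMIs in 2.89% of the total. With such cells left out of both sides, the log2 difference of Ikzf2 from naive cells was 3.77 in follicular helper cells, 2.83 in effector or memory cells and 3.16 in the other T cells, and each passed (edgeR).

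Ikzf4 took the opposite direction in effector cells without Foxp3. Follicular helper cells had 1.19 and 4.38 CPM in the KO day 4 and control day 4 pools (2 and 5 UMIs), against 9.04 and 9.00 CPM in naive cells, a log2 fold change of -2.10 ± 0.48 (adjusted p = 0.00168, edgeR). Effector or memory cells had 7.79, 3.25, 3.74 and 3.23 CPM in the KO day 4, control day 4, KO day 0 and control day 0 pools, a log2 fold change of -1.11 ± 0.35 (adjusted p = 0.0158, edgeR). Of the 18 Ikzf4 UMIs in effector or memory cells, 15 came from the 74 cells with 3 or more regulatory genes. Without those cells, 3 UMIs were left, and the level was 0.125 times that of naive cells handled alike (95% counting interval 0.0256 to 0.370). These calls rest on few UMIs: with gates set on thinned cells the log2 fold change was -0.95 in follicular helper cells (adjusted p = 0.402, edgeR) and -0.07 in effector or memory cells (adjusted p = 0.913, edgeR), and DESeq2 gave adjusted p = 0.109 and 0.102. The effector or memory call was also lost without the control day 4 pool (adjusted p = 0.128, edgeR).

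Ikzf3 was higher in innate-like cells than in naive cells by 1.01 ± 0.14 on the log2 scale (adjusted p = 9.91e-08, edgeR), with 145, 208, 119 and 206 CPM in the 4 pools. It was higher by 0.44 ± 0.11 in follicular helper cells (adjusted p = 0.00474, edgeR) and by 0.46 ± 0.10 in effector or memory cells (adjusted p = 0.000675, edgeR). The follicular helper call was lost with DESeq2 (adjusted p = 0.152), and the effector or memory call was lost without the KO day 4 pool (0.30, adjusted p = 0.12, edgeR). Ikzf1 was lower in effector or memory cells than in naive cells, with 199, 197, 148 and 258 CPM in the 4 pools and a log2 fold change of -0.57 ± 0.08 (adjusted p = 1.84e-06, edgeR). Of these pools, the control day 0 pool alone lay inside the naive range of 243.8 to 266.6 CPM. Its log2 fold changes of -0.36 in follicular helper, -0.39 in innate-like and -0.32 in the other T cells passed as well (edgeR), but each was lost with DESeq2, at adjusted p = 0.0877, 0.0941 and 0.266. The follicular helper call was also lost with thinned gates (adjusted p = 0.0999, edgeR) and without cells with 3 or more regulatory genes (0.128), and the innate-like call without the KO day 4 (0.125) or control day 4 pool (0.1004). The call in the other T cells was lost without the KO day 4 pool (adjusted p = 0.0981, edgeR), without the control day 4 pool (0.254) and without cells with 3 or more regulatory genes (0.1301). In follicular helper cells, Ikzf1 had 216 and 247 CPM in the KO day 4 and control day 4 pools. Naive cells had 247 and 244 CPM there, so only the KO day 4 pool lay lower. Without cells with 3 or more regulatory genes, the summed ratio to naive cells was 1.03 (counting interval 0.932 to 1.13). Innate-like pools ran from 208 to 231 CPM and other T pools from 191 to 260 CPM. Unlike CPM, the edgeR fits scale totals by TMM, and its part in these log2 fold changes was not tested.

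**Figure D3:**
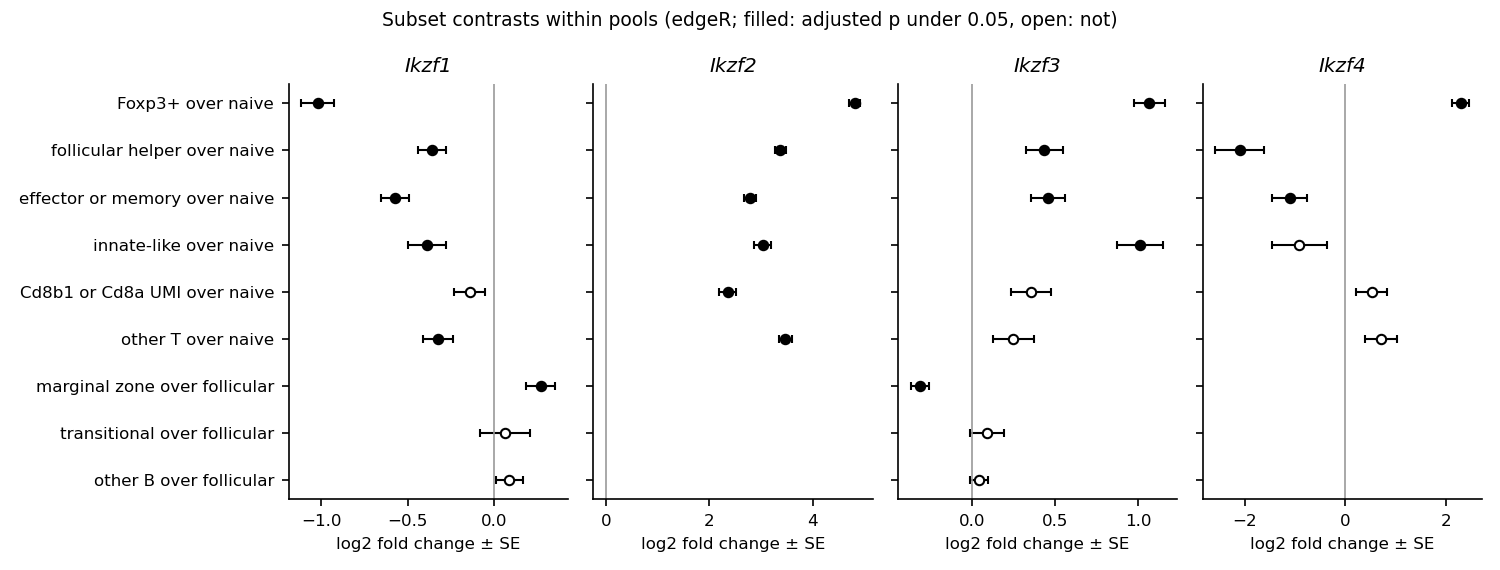
Log2 fold changes (± SE) of the 4 members from edgeR fits with the pool as a block, for 6 T cell and 3 B cell contrasts named subset over its comparison subset. Filled points passed an adjusted p of 0.05 over all genes tested and open points did not; each panel has its own axis, and Ikzf2 is above 0 in all 6 T cell contrasts.

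In the order of levels over the 8 T cell subsets, Ikzf2 ran from 742 CPM in Foxp3+ follicular cells through 546 in Foxp3+ non-follicular, 239 in follicular helper, 211 in other T, 165 in innate-like, 139.8 in effector or memory and 97.7 in the Cd8b1 gate to 17.3 CPM in naive cells. Summed over pools, every neighbouring pair in this order differed beyond counting error, but the order was not the same within each pool. In the control day 4 pool, other T cells (245 CPM) lay above follicular helper cells (231 CPM), and in the KO day 0 pool, effector or memory cells (131 CPM) lay above innate-like cells (82.0 CPM). Ikzf1 ran from 248 CPM in naive cells to 196 CPM in effector or memory cells over the 6 subsets without a Foxp3 gate, and on to 158 CPM in Foxp3+ follicular and 142 CPM in Foxp3+ non-follicular cells. No neighbouring pair of Ikzf1 levels differed beyond counting error. Ikzf4 was first in Foxp3+ non-follicular cells, at 2.75 times (1.16 to 8.57) the level of the follicular cells that came next, and last in follicular helper cells, at 3.07 CPM. Ikzf3 ranged from 278 CPM in Foxp3+ follicular cells to 74.9 CPM in naive cells. Its Foxp3+ non-follicular and innate-like levels, 177 and 168 CPM, did not differ beyond counting error (ratio 1.06, 0.909 to 1.23).

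Detection of Ikzf1 and Ikzf2 in the same cell was compared after thinning. Among effector or memory cells, Ikzf1 was detected in 7 of 97 cells with an Ikzf2 UMI (7.22%, 2.95 to 14.3%) and in 114 of 431 cells without one (26.5%, 22.3 to 30.9%). In follicular helper cells the shares were 15.2% (8.10 to 25.0%) and 28.6% (22.1 to 35.7%), and in Foxp3+ cells 14.9% (10.9 to 19.8%) and 21.7% (17.4 to 26.5%), with overlapping intervals in both. In naive cells they were 24.7% (16.0 to 35.3%) and 31.9% (30.6 to 33.3%). The share of cells with Ikzf1 was lower beside Ikzf2 in each of the 4 subsets, and the 2 intervals were apart in effector or memory cells alone. These counts took all pools together and did not set apart cells with 3 or more of the 6 regulatory genes. In the effector or memory subset, 74 such cells held 225 of the 488 Ikzf2 UMIs. Ikzf4 was detected in 28 of 268 Foxp3+ cells with Ikzf2 (10.4%, 7.06 to 14.7%) and in 22 of 332 without (6.63%, 4.20 to 9.86%). In naive cells the Ikzf4 shares were 8.24% with Ikzf2 (lower limit 3.38%) and 1.25% without (upper limit 1.61%). In effector or memory cells they were 5.15% (lower limit 1.69%) and 0.232% (upper limit 1.29%), on 5 and 1 cells. The intervals were apart in both, and they overlapped in Foxp3+ and follicular helper cells. Cells with 3 or more of the 6 regulatory genes were not set apart here either.

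B lineage cells held more Ikzf3 and almost no Ikzf2 or Ikzf4. Ikzf3 had 412, 377, 463 and 495 CPM in B lineage cells of the KO day 4, control day 4, KO day 0 and control day 0 pools, against 98.5, 100.7, 92.3 and 89.0 CPM in T lineage cells. The log2 difference was 2.08 ± 0.07 (adjusted p = 6.87e-10, edgeR), with 68.2% of 12220 genes past the threshold in this contrast. Ikzf1 had 209.8, 185, 179.5 and 176 CPM in B lineage cells, against 228, 225, 228 and 257 CPM in T lineage cells, with no overlap and a log2 fold change of -0.42 ± 0.08 (adjusted p = 0.000482, edgeR). Ikzf2 gave 4 UMIs in 5213 B lineage cells, which is 0.00107 times the T lineage level (95% counting interval 0.000291 to 0.00274), and Ikzf4 gave 1 UMI, or 0.00228 times that level (5.75e-05 to 0.0127). Each lineage was 1 library, so lineage and library cannot be told apart.

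The partner genes were split between the lineages. Of 19 tested, 6 were higher in B lineage cells and 9 lower (33.4% and 34.8% of all genes), and their median log2 fold change was -0.09, against 0.01 over all genes. Chd3, a remodelling enzyme of the deacetylase complex, had 89.3 CPM in B lineage cells and 423 CPM in T lineage cells (log2 fold change -2.34 ± 0.06, adjusted p = 2.88e-11, edgeR). Its relative Chd4 had 178.5 CPM in B lineage and 229 CPM in T lineage cells (-0.49 ± 0.06), and the subunit gene Mta1 had 28.7 and 42.4 CPM (-0.69 ± 0.08). The histone-binding subunit gene Rbbp4 was higher in B lineage cells, with 138 CPM against 98.6 CPM in T lineage cells (0.41 ± 0.05), as were Mta3 (0.33 ± 0.06) and Mbd3 (0.33 ± 0.06).

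Within the B lineage, marginal zone cells, which patrol the blood side of the splenic follicle, held less Ikzf3 than follicular cells. Ikzf3 had 368, 319, 363 and 419.5 CPM in marginal zone cells of the KO day 4, control day 4, KO day 0 and control day 0 pools, against 447, 433, 483 and 514 CPM in follicular cells. The groups did not overlap. The log2 fold change was -0.32 ± 0.05 (adjusted p = 0.00108, edgeR), where 17.2% of 10248 genes passed. Ikzf1 had 225, 193.5, 225 and 231 CPM in marginal zone cells and 209, 190.1, 163 and 173 CPM in follicular cells, so that the 2 sets of pools overlapped, and the log2 fold change was 0.27 ± 0.09 (adjusted p = 0.0438, edgeR). That call was lost with DESeq2 (adjusted p = 0.0846), without the pool as a block (0.0745, edgeR) and without the KO day 4, KO day 0 or control day 0 pool (0.0536, 0.159 and 0.15, edgeR). Neither gene passed in transitional cells, recent arrivals from the bone marrow, where 3.63% of genes did, nor in the other B cells, where 1.28% did. All 6 cycling genes were higher in the marginal zone gate than in the follicular gate (edgeR), as were 9.71% of all genes. With cycling cells left out of both gates, the log2 fold change was -0.26 ± 0.06 for Ikzf3 (adjusted p = 0.00577, edgeR) and 0.29 ± 0.08 for Ikzf1 (adjusted p = 0.028, edgeR). Median depth was 8635.5 UMIs in marginal zone cells and 5170 UMIs in follicular cells. This contrast had no fit with gates set on thinned cells, so the part of depth was not tested.

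**Figure D4:**
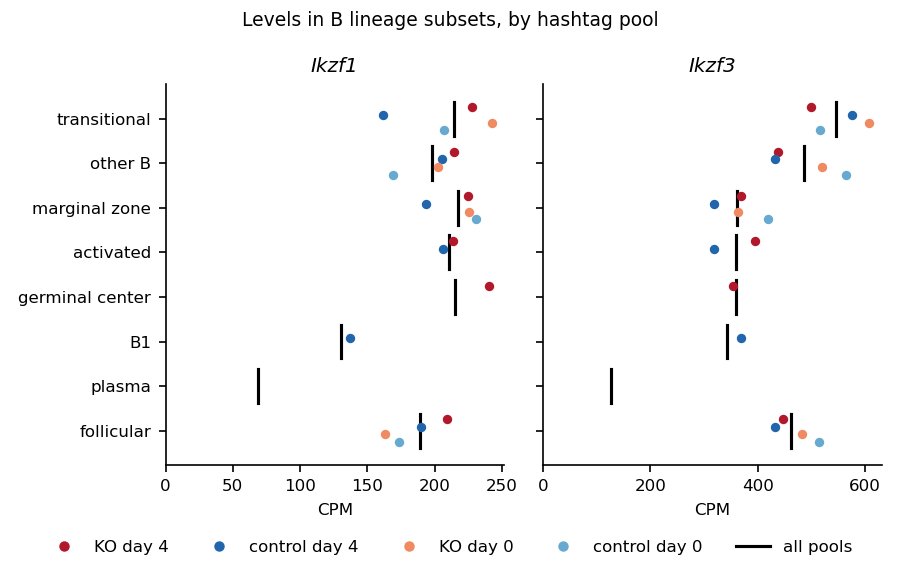
Ikzf1 and Ikzf3 levels (CPM, axes from 0) in 8 B lineage subsets, with points for hashtag pools of at least 20 cells and black bars for all pools summed. Both genes are lowest in plasma cells, at 68.7 and 127 CPM, and Ikzf3 is highest in transitional cells, at 547 CPM.

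Antibody-secreting cells had the lowest levels. The 49 plasma cells, which had no pool of 20 cells and no test, held 127 CPM of Ikzf3, or 0.274 times the follicular level (95% counting interval 0.233 to 0.321), and 68.7 CPM of Ikzf1, or 0.364 times (0.290 to 0.450). Immunoglobulin genes made up 31.7% of the UMIs of plasma cells and 1.59% of those of follicular cells. With totals that left out immunoglobulin, T cell receptor, ribosomal and mitochondrial genes, the ratios were 0.3497 (0.297 to 0.409) for Ikzf3 and 0.463 (0.3697 to 0.574) for Ikzf1. With cycling cells left out, they were 0.213 (0.1600 to 0.278) and 0.292 (0.197 to 0.418). Ikzf3 had 154, 130.4, 68.3 and 78.0 CPM in plasma cells of the 4 pools, on 61, 80, 6 and 12 UMIs. Activated B cells, found almost only on day 4, had 396 and 318 CPM of Ikzf3 in the KO and control pools of that day, against 447 and 433 CPM in follicular cells of the same pools. The ratio was 0.886 (0.813 to 0.964) in KO and 0.735 (0.664 to 0.812) in control cells. Germinal center cells had 0.776 times (0.694 to 0.866) and B1 cells 0.739 times (0.650 to 0.836) the follicular level of Ikzf3, and B1 cells 0.689 times (0.559 to 0.841) that of Ikzf1. With cycling cells left out, the germinal center ratio was 0.939 (0.7303 to 1.19), and its interval held 1.

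In the order of Ikzf3 over the 8 B cell subsets, 3 neighbouring pairs differed beyond counting error. Transitional cells (547 CPM) exceeded the other B cells (486 CPM) by 1.13 times (1.02 to 1.24), follicular cells (463 CPM) exceeded marginal zone cells (361 CPM) by 1.28 times (1.22 to 1.35), and B1 cells (342 CPM) exceeded plasma cells by 2.69 times (2.20 to 3.30). Marginal zone, activated, germinal center and B1 cells did not differ between neighbours beyond counting error. For Ikzf1, the 6 subsets from marginal zone (217 CPM) to follicular cells (189 CPM) did not differ between neighbours, and follicular cells exceeded B1 cells (130.2 CPM) by 1.45 times (1.19 to 1.79).

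Across days, the whole T lineage held more Ikzf2 on day 4 than on day 0, in both genotypes. It had 119 CPM on day 4 and 67.7 CPM on day 0 in KO mice, a ratio of 1.76 (95% counting interval 1.58 to 1.95), and 128 and 68.2 CPM in control mice, a ratio of 1.87 (1.66 to 2.12). Both were past the 1.5-fold limit used for single pools, as were 6.63% of genes in KO and 9.05% in control cells. Subset shares differed between the days as well. Gates rest on detected UMIs and day 4 cells were deeper, and the part of depth in these shares was not tested. Foxp3+ cells made up 9.66% of T lineage cells on day 4 and 6.45% on day 0 in KO mice, and 8.68% and 5.04% in control mice, and follicular helper cells 4.31% and 1.42% in KO mice, and 5.14% and 0.617% in control mice. With the same mix of subsets in both pools the ratios were 1.33 in KO and 1.22 in control cells, under 1.5. Inside the Foxp3+ subset they were 1.14 (0.966 to 1.34) in KO and 1.27 (1.04 to 1.57) in control cells, where 8.8% and 10.3% of genes were past 1.5-fold and 14.2% of control intervals left out 1. Inside the naive subset they were 1.27 (0.965 to 1.68) in KO and 1.47 (1.01 to 2.18) in control cells, where 3.82% and 5.19% of genes were past 1.5-fold. Naive cells with fewer than 3 of the 6 regulatory genes had ratios of 1.75 (1.22 to 2.57) in KO and 1.15 (0.748 to 1.81) in control cells, on 37 and 31 UMIs on day 0.

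Between genotypes, no member reached 1.5-fold in the T lineage, the Foxp3+ subset or the naive subset on either day, where 2.22%, 4.15% and 1.64% of genes did on day 4 and 2.43%, 4.43% and 2.51% on day 0. Smaller subsets are outside this statement. Ikzf1 in effector or memory cells on day 0 stood at 148 CPM in KO and 258 CPM in control mice. These levels rest on 79 and 80 UMIs and lie more than 1.5-fold apart. The share of all genes past 1.5-fold was not counted in that subset. Ikzf2 in Foxp3+ cells stood at 535 CPM in KO and 645 CPM in control mice on day 4, a ratio of 0.830 (0.755 to 0.914) whose interval left out 1, as did that of 8.9% of genes. On day 0 it stood at 471 and 506 CPM, a ratio of 0.931 (0.729 to 1.19). Ikzf1 in the T lineage had a ratio of 1.01 (0.965 to 1.06) on day 4, and on day 0 of 0.886 (0.819 to 0.958), with 228 CPM in KO and 257 CPM in control mice. The day 0 interval left out 1, as it did for 10.6% of genes. Ikzf4 had ratios of 1.08 (0.881 to 1.34) and 0.853 (0.607 to 1.202) on day 4 and day 0. With 1 pool a group, none of these differences could be tested against the spread between mice.

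**Figure D5:**
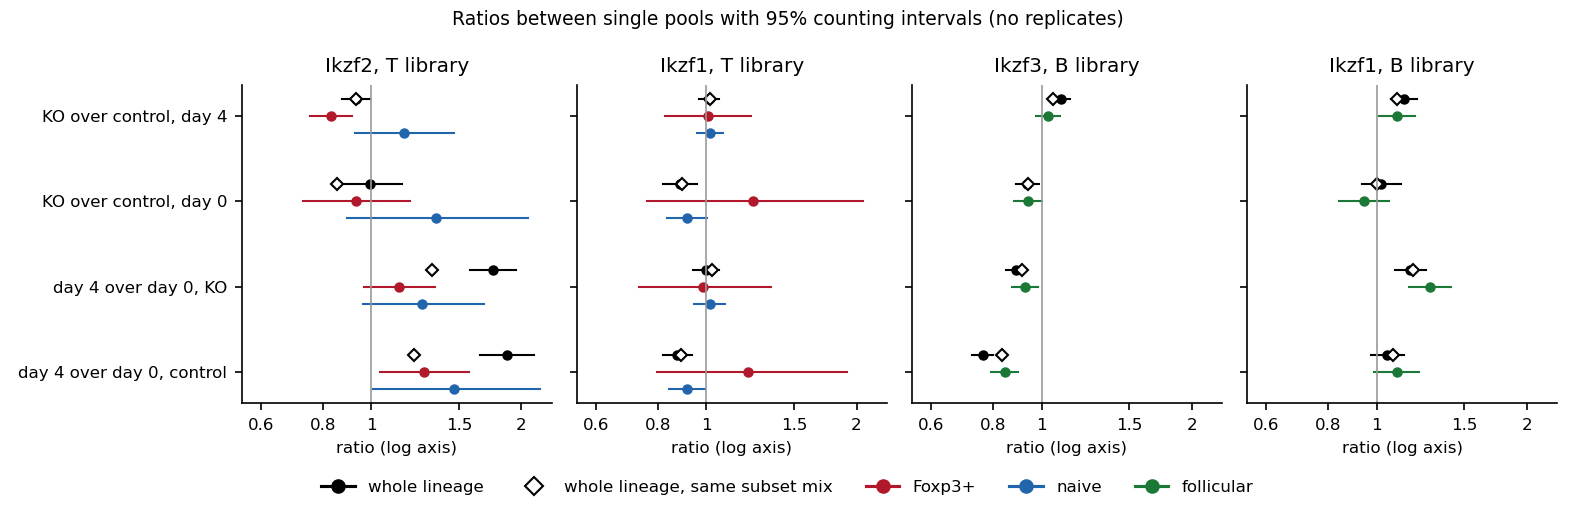
Ratios of Ikzf2 and Ikzf1 in the T library and of Ikzf3 and Ikzf1 in the B library between single pools (log axis, 1 marked by a line), with 95% counting intervals. Filled points are the whole lineage or a subset and open diamonds the whole lineage with the same subset mix in both pools; the day ratios of Ikzf2 are 1.76 and 1.87 in the lineage and 1.33 and 1.22 with the same mix.

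In the B lineage, Ikzf3 was lower on day 4 than on day 0 in both genotypes, beyond counting error. The ratio was 0.889 (0.849 to 0.932) in KO mice, with 412 CPM on day 4 and 463 CPM on day 0, and 0.762 (0.725 to 0.8004) in control mice, with 377 and 495 CPM. Neither was past 1.5-fold, as 5.63% and 9.79% of genes were, and intervals that left out 1 were held by 25.1% and 36.8% of genes. With the same mix of subsets the ratios were 0.912 and 0.833. In follicular cells they were 0.926 (0.872 to 0.983) in KO and 0.843 (0.791 to 0.898) in control mice, with intervals without 1 as for 17.3% and 22.7% of genes. Ikzf1 in follicular cells had 209 CPM on day 4 and 163 CPM on day 0 in KO mice, a ratio of 1.28 (1.16 to 1.41), and 190.1 and 173 CPM in control mice, a ratio of 1.10 (0.9899 to 1.22).

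Set by genotype, B lineage Ikzf3 was at 1.09 times the control level in KO cells on day 4 (1.05 to 1.14) and at 0.936 times on day 0 (0.887 to 0.988), and Ikzf1 at 1.14 (1.07 to 1.21) and 1.02 times (0.936 to 1.12). None reached 1.5-fold, as 3.08% of genes did on day 4 and 3.44% on day 0, and 18.8% and 12.5% of intervals left out 1. The day and genotype ratios share their pools and are not independent of each other. Of the 19 partner genes with enough UMIs, none passed 1.5-fold in any of the 4 comparisons in either library. Over all genes, 3.08% to 9.79% did in the B lineage and 2.22% to 9.05% in the T lineage, so none among 19 genes says little.

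Over the 16 subsets of both libraries, the genes whose log2(CPM + 1) followed each member most closely were picked from 8818 genes with at least 500 UMIs. They were Ccr4 (Pearson r = 0.98), Tiam1 and Sdcbp2 for Ikzf2, Apobec3 (0.98), Ncf4 and Map2k1 for Ikzf3, Ift80 (0.97), Ecm1 and Igsf23 for Ikzf4, and Hps5 (0.91), Fam13b and Brd7 for Ikzf1. Among the members themselves, Ikzf2 and Ikzf4 had r = 0.92 over the 16 subsets and 0.39 over the 8 T cell subsets. Over the 8 T cell subsets, Ikzf1 had r = -0.80 with Ikzf2, -0.66 with Ikzf4 and -0.80 with Ikzf3, and Ikzf2 had r = 0.84 with Ikzf3. These values describe subsets cut from 2 libraries that differ in cell type and depth.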

How the data were processed

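RNA of splenic B cells and CD4+ T cells was read in 2 droplet libraries, each mixing 4 hashtag pools. Per the submitters' processing notes, the deposited counts (whole UMIs per gene and cell, not normalized) were made with Cell Ranger 5.0.0 on mm10. The mapping of hashtags to groups comes from the series' design text.

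Cells under 200 genes or over 10% mitochondrial UMIs were dropped, and hashtags were assigned with HTODemux (Seurat 5.3.0, R 4.3.3, quantile 0.99), leaving 5477 B-library and 7636 T-library cells. Cells with several hashtags (568 and 1007) were dropped as doublets, and no other doublet caller was run, so doublets within a pool remain. The libraries shared 84 barcodes. B lineage cells had at least 2 UMIs of Cd79a, Cd79b and Ms4a1 and none of the Cd3 genes, and T lineage cells at least 1 Cd3 UMI and none of those B cell genes. Cells with 2 or more myeloid genes or at least 20 hemoglobin UMIs were left out of both. Subset gates asked for 1 or 2 UMIs or marker genes and were applied in a fixed order. A planned further split of the Foxp3+ cells is not reported here.

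UMIs were summed per pool and subset (at least 20 cells), and subsets were compared with edgeR 4.0.16 (quasi-likelihood test, TMM, pool as a block, Benjamini-Hochberg over all genes tested); the SE is the log2 fold change over the root of the F statistic. The block comes from the design, since the 2 sums of a pool share its mice and droplets. DESeq2 1.42.0 was an alternative. Ratios between single pools have exact conditional binomial 95% intervals, which cover counting error only; a ratio counted as past 1.5-fold with at least 50 UMIs and an interval without 1. Both methods were tested on simulated data. The members, the lists of partner, regulatory and cycling genes and the gates were chosen with earlier results of these data known. Named genes were the 4 members, up to 3 highest and 3 lowest passing genes of each list, and the 3 genes most like each member; other genes were named only as gates or checks.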

Additional observations from a re-analysis of the deposited data

Results flagged for a closer look

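Ikzf1 in effector or memory T cells moved in opposite directions across days in the 2 genotypes. It had 199 CPM on day 4 and 148 CPM on day 0 in KO mice, a ratio of 1.35 (95% counting interval 1.05 to 1.75), and 197 and 258 CPM in control mice, a ratio of 0.764 (0.591 to 0.996). Leaving out cells with 3 or more of the 6 regulatory genes gave 1.48 (1.13 to 1.97) in KO and 0.756 (0.578 to 0.998) in control mice. The day 0 values rest on 79 UMIs in 93 KO cells and 80 UMIs in 63 control cells. Each ratio compares 1 pool with 1 pool, and the difference between the ratios was not tested. The results of this section were picked among all ratios of the members because their direction differed between groups. What share of all genes would be picked in this way was not counted.

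Ikzf3 in B lineage cells differed in direction between days when KO was set against control. The ratio was 1.09 (1.05 to 1.14) on day 4 and 0.936 (0.887 to 0.988) on day 0. With the same mix of subsets in both pools the ratios were 1.06 and 0.940. This difference was not tested either.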

How the results depend on the processing

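The 4 Foxp3+ over naive calls of the members and the 4 B lineage over T lineage calls held under every alternative run (DESeq2, no filter on low counts, no replicate block, each pool left out, gates on thinned cells and, for Foxp3+ cells, other Foxp3 gates). In B lineage cells, Ikzf2 and Ikzf4 had only 4 and 1 UMIs and entered that test through their T lineage counts. That their B over T calls held is therefore no added support. Of 286 alternative fits of a member, 260 kept direction and call, 22 lost the call, 1 gained it and 3 changed sign; the lost calls were of Ikzf1 in follicular helper, innate-like, other T and marginal zone cells and of Ikzf3 and Ikzf4 in follicular helper and effector or memory cells. The sign changes were of differences that had not passed: Ikzf4 in the Cd8b1 gate without cells with a Foxp3 UMI (-0.60), Ikzf3 in other B over follicular cells with thinned gates (-0.13), and Ikzf1 in transitional over follicular cells with 1 pool left out (-0.0715 to 0.198). Ikzf3 gained a call in the other T cells with thinned gates (0.185, adjusted p = 0.0465, edgeR). Without the replicate block, which pairs the sums of a pool, only the Ikzf1 call in marginal zone cells was lost (0.28, adjusted p = 0.0745, edgeR). The causes of these changes were not tested. Leaving out cells with a Foxp3 UMI, cells with regulatory genes, cycling cells in edgeR fits or shared barcodes, and taking all cells with a Foxp3 UMI, were chosen after seeing the data.

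Counts of genes past the threshold moved by more than 1.5 times as follows. In the order Cd8b1 gate, Foxp3+, effector or memory, follicular helper, innate-like and other T over naive, the counts were 188, 2419, 2971, 4270, 1307 and 810, and with DESeq2 39, 1111, 1560, 1609, 686 and 375. Marginal zone over follicular had 1762 and with DESeq2 1087. Without the filter, the Cd8b1 gate had 329, other B (124 before) 351 and transitional cells (354 before) 550. Without the replicate block, the Cd8b1 gate had 68 and other B 29. Without cells with a Foxp3 UMI, the Cd8b1 gate had 103. With thinned gates, the Cd8b1 gate had 16, Foxp3+ 1599, follicular helper 2048, other B 577 and other T 1860.

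With 1 pool left out, counts ran from 62 to 261 (Cd8b1 gate), 1300 to 2477 (Foxp3+), 1825 to 2972 (effector or memory), 720 to 1369 (innate-like), 441 to 733 (other T), 1127 to 1611 (marginal zone), 60 to 138 (other B) and 198 to 310 (transitional). No pool could be left out for follicular helper cells, which had 2.

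Of 144 alternative ratios between pools, 140 moved by less than counting error. With the same subset mix, Ikzf2 in the T lineage had 1.33 (KO) and 1.22 (control) for day 4 over day 0, and Ikzf3 in the B lineage of control mice had 0.833 for day 4 over day 0 (0.810 without cycling cells). Leaving immunoglobulin, T cell receptor, ribosomal and mitochondrial genes out of the totals moved 54 of 59 levels, so CPM depends on what the total holds. Gates set on cells thinned to 1500 UMIs moved 26 levels and left 25 the same. Taking the mean over cells of each cell's CPM moved 17 and left 42 the same. Subset levels thus also depend on the depth at which the gates are set. Ikzf4 in cells without Foxp3 rests on 1 to 11 UMIs a pool in effector and follicular helper cells, where depth is the limit.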
